A study of Drosophila melanogaster with 4 samples.

Results

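The spalt genes of Drosophila melanogaster, salm (spalt major) and salr (spalt-related), are a pair of neighbouring genes on chromosome arm 2L. This text describes how trimethylation of histone H3 at lysine 27 (H3K27me3) was laid out over them in embryos. The genes were given as the window from 11.28 to 11.5 Mb on 2L, in Release 5 of the fly genome, and every enriched region that overlaps this window in a deposited list was taken. That gave 6 regions of 5224 in all, namely 2 of 1486 in replicate 1, 2 of 1459 in replicate 2 and 2 of 2279 in a list of the whole series, called the series list below.

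The material was whole wild-type embryos of the strain Oregon-R at 14 to 16 h of development, with no treatment and no second genotype. There were 2 ChIP libraries, precipitated with an antibody to H3K27me3, and 2 matching input libraries. By their labels, input 1 served the regions of ChIP replicate 1 and input 2 those of ChIP replicate 2. The inputs were not used here by themselves. A list gives the start, end and score of each region. The score is the authors' own value, and its scale is not stated in the sources at hand. No read counts were used, so the depth behind a call is unknown. Whole embryos mix many cell types, and a call in such material does not tell how many cells carry the mark. With 1 group of 2 ChIP samples and members chosen from these lists, all values below are descriptions without a test.

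Salm and salr encode zinc-finger transcription factors of the Spalt family, whose vertebrate relatives are the SALL proteins. In the fly they act in the embryonic head and tail, the tracheal system and the oenocytes, and later in the wing disc, where they respond to the signal Dpp and help to place the veins, and in the eye and antenna. H3K27me3 is written by the Polycomb complex PRC2 and is known for long domains over developmental regulators that are silent in a given cell.

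Both genes were found in the RefSeq gene table, salr with gene ID 34568 and salm with gene ID 34569. Sorted by start, that table has 1 gene between them, the long non-coding RNA gene lncRNA:CR43681, and no protein-coding gene. Before salr come lncRNA:CR44585, the protein-coding CG14926 and lncRNA:CR44586. After salm come lncRNA:CR46454, the protein-coding CG43355 and sala (spalt-adjacent). The table belongs to Release 6, so it was used for names and order only. Where salm, salr and their neighbours begin and end within the regions was therefore not measured, and no sequence is shown.

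The spalt window was filled almost from end to end by called sequence, in a long region to the right (higher coordinates) and a shorter one to its left. The right region lay at 11316994 to 11495123 in replicate 1. In replicate 2 it lay at 11316890 to 11495174. Its width was 178.13 kb and 178.285 kb, or 178.2 kb ± 0.11 (SD, n = 2). The left region lay at 11285765 to 11316155 in replicate 1. In replicate 2 it lay at 11285894 to 11316163, and its width was 30.3 kb ± 0.086 (SD, n = 2). The series list held the same pair, at 11285544 to 11316198 (30.7 kb) and 11316639 to 11495485 (178.8 kb). From the first base of the left region to the last base of the right one, the pair extended over 209.4 kb in replicate 1, and in replicate 2 over 209.3 kb. The right region made up 85.1% and 85.2% of that span and the left region 14.5% in both replicates.

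**Figure D1:**
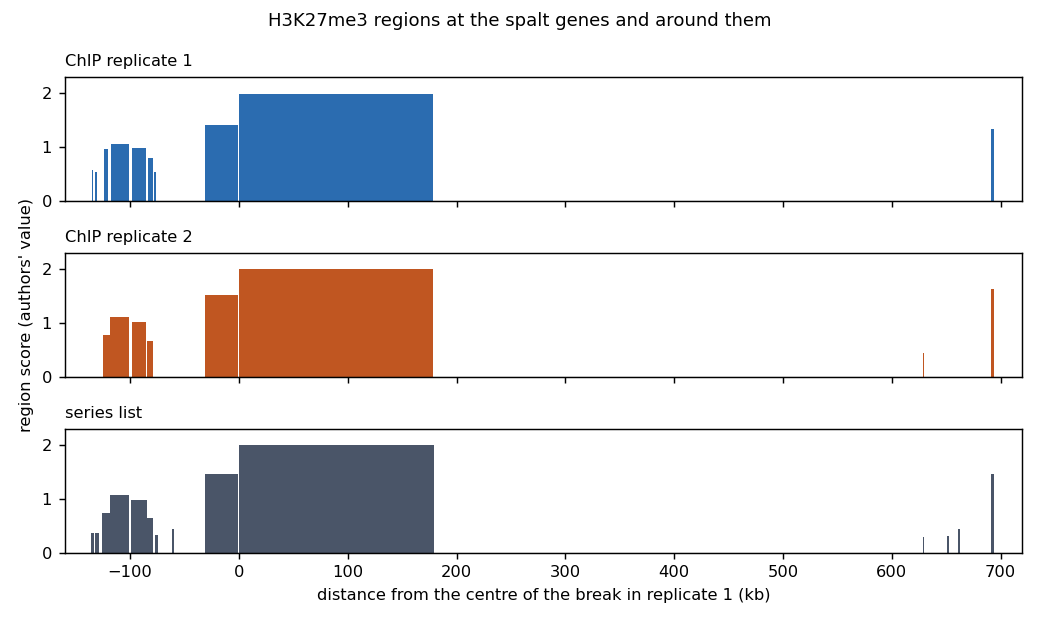
Enriched regions at the spalt genes in replicate 1, replicate 2 and the series list. The x axis is the distance in kb from the centre of the break in replicate 1, each bar spans 1 region, and its height is the authors' score. The left and right spalt regions stand on either side of 0 in all 3 lists. A cluster of lower-scoring regions lies further left, and a stretch of about 450 kb or more without a call follows on the right.

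Called sequence took up 94.8% of the 220 kb window in both replicates (94.79% ± 0.011, SD, n = 2) and 95.2% in the series list. Over the whole of 2L the share was 13.3% in replicate 1 and 13.8% in replicate 2. The window thus held 6.83% and 6.57% of all called bases of the arm. When the major arms were cut from their first base into 544 tiles of the window's length, the median tile was called over 3.27% (mean of the replicates), 158 tiles held no call in either replicate, and 35 were called over more than 50% in both. The window was drawn around a domain and the tiles were not, so these figures describe the genome and do not rank the locus.

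By width the right region held rank 3 in each of the 3 lists and was the widest of 2L in each. By score it stood lower. Its score was 2.00 in replicate 1, 1.99 in replicate 2 and 1.99 in the series list, which is rank 107 of 1486, 112 of 1459 and 116 of 2279. Among regions of at least 10 kb, called broad here, it held rank 97 of 300 in replicate 1 and 100 of 311 in replicate 2. Of the other regions of at least 100 kb, 12 of 21 in replicate 1 and 14 of 22 in replicate 2 scored higher. The median of those others was 2.13 and 2.09, so the spalt region sat near the middle of the longest domains.

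The left region had the lower score of the pair, 1.41 in replicate 1, 1.51 in replicate 2 and 1.45 in the series list. Its ranks by score were 199 of 1486 and 183 of 1459 in the replicates. In the replicates the left region was also low for its width. Of the other regions between 25 and 36 kb, 34 of 47 in replicate 1 and 33 of 51 in replicate 2 had higher scores, with medians of 2.10 and 2.02. In the series list it stood nearer the middle, where the median of 60 such regions was 1.61 and 32 of them scored higher.

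**Figure D2:**
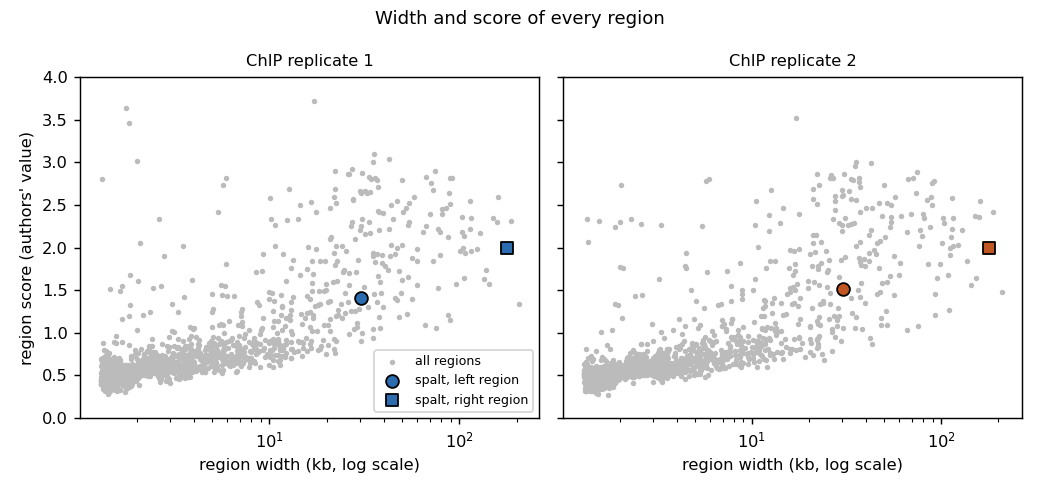
Width (kb, log scale) against the authors' score for every region of replicate 1 and replicate 2, with the spalt regions marked. The right region lies near the upper end of width at a score of about 2, and the left region lies below most regions of its width.

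The replicates called the spalt locus almost base for base alike. Of the bases of the window called in either replicate, 99.9% were called in both. Over all regions of the lists, short ones included, the share was 86.4%, but close sharing was usual for broad regions that matched one to one. Replicate 1 had 300 broad regions and replicate 2 had 311, and those without such a match were not compared in this way. Taken by itself, the right spalt region was shared over 99.91% of its bases and the left one over 99.55%. Among the 190 pairs of broad regions that matched one to one the median was 99.0%, and among the 15 of them with at least 100 kb in both replicates it was 99.7%, with 3 of the 15, spalt included, at or above the right region's value. Replicate 1 alone called 129 bases of the window and replicate 2 alone called 163. All 4 replicate regions of the window overlapped a region of the other replicate. Over the whole lists this held for 81.3% of replicate 1 regions and 75.5% of replicate 2 regions, and for broad regions it was 100% in both, so that the count says nothing particular about spalt.

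The ends were placed with ordinary precision for a broad region that matched one to one. Between replicates the left region began 129 bp and ended 8 bp apart, and the right region began 104 bp and ended 51 bp apart. Among the 380 ends of the 190 broad pairs, these 2 pairs included, the median difference was 94.5 bp. The outer ends of the series list lay further out than those of either replicate, by 221 and 350 bp on the left and by 362 and 311 bp on the right. No base of the window called in a replicate was missing from the series list. Of the window's bases in that list, 99.5% were called in both replicates, against 76.4% for the series list as a whole. Only 332 of the 2279 regions of that list were broad, and the share over those alone was not measured. The contrast therefore does not single out spalt.

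The score of the right region repeated closely and that of the left one less so. The right region differed by 0.0024 between replicates, less than the median difference of 0.045 among the 190 broad pairs. The left region differed by 0.11, and 30 of the 190 pairs (that region counted) differed by as much or more.

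A short break separated the 2 regions, and it was the only one in the span in each list. It lay at 11316156 to 11316993 in replicate 1 (838 bp), at 11316164 to 11316889 in replicate 2 (726 bp) and at 11316199 to 11316638 in the series list (440 bp). Each shorter break lay wholly within the longer ones. Its left edge moved by only 8 bp between replicates and by 43 bp at most among the 3 lists, while its right edge moved by 104 bp between replicates and by up to 355 bp among the lists. The break took up 0.400% of the span in replicate 1 and 0.347% in replicate 2.

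**Figure D3:**
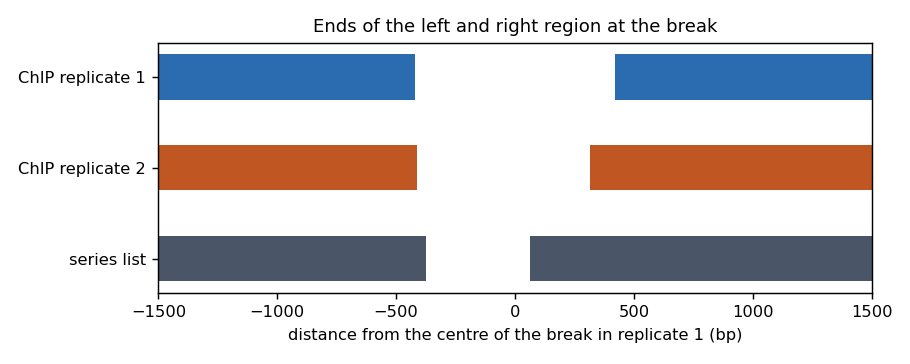
Called sequence within 1500 bp of the centre of the break in replicate 1, as bars for each of the 3 lists. The x axis is the distance in bp. The left region ends at nearly the same place in each list, and the right region begins earliest in the series list.

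Breaks of this kind were common in the lists. Counting those under 2 kb between regions of at least 5 kb each, replicate 1 had 91 with a median of 621 bp and replicate 2 had 95 with a median of 590 bp. The spalt break was somewhat longer than these medians. It recurred in both replicates, as did 41.8% of the breaks of replicate 1 and 40.0% of those of replicate 2, or 38 breaks. Over the 76 edges of these 38, the median difference between replicates was 110.5 bp. For the spalt break, 3 of the 76 edges, its own included, differed by as little as its left edge, and 37 by as little as its right edge.

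The score rose across the spalt break from left to right, by 0.59 in replicate 1, 0.48 in replicate 2 and 0.54 in the series list. The spread between replicates was 0.077 (SD, n = 2) for the left region and 0.0017 (SD, n = 2) for the right one. The step was larger than either, but these are not the spread of the step itself. Both scores of a replicate come from the same library, so the step is paired by replicate, with the values 0.59 and 0.48. An unpaired 2-sided exact permutation test of 2 values against 2 would ignore that pairing and reaches p = 0.333 at best. No test was run. The median step, regardless of direction, was 0.19 over the breaks of replicate 1 and 0.21 over those of replicate 2, and the spalt step ranked 19 of 91 and 24 of 95. The higher score lay on the longer side, as at 75.8% of the breaks of replicate 1 and 74.7% of those of replicate 2.

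Only 7 of the 38 recurring breaks had at least 25 kb of called sequence in 1 region on each side in both replicates, and spalt was among them. Its closest counterparts in layout, chosen after the values were seen, were the others of the 10 longest stretches with a region of at least 10 kb under 2 kb to their left in both replicates. On 3R a break from 12624190 to 12624864 in replicate 1 separated a 37.0 kb region (score 1.93) from a stretch of 185.8 kb (2.31). On 3L one from 12565078 to 12565572 separated a 30.8 kb region (0.997) from a stretch of 160.4 kb (2.60). Another, at the left edge of the 150.7 kb stretch that starts at 5366350 on 2L, was 344 bp long in replicate 1 and followed an 11.6 kb region (1.21 against 2.34). In replicate 2 the scores of these 3 pairs were 2.06 and 2.42, 1.06 and 2.55, and 1.32 and 2.37. In each of them, as at spalt, the shorter left region scored lower than the long one in both replicates, which was the commoner order over all breaks (75.8% and 74.7%). A 3R stretch of 137 kb, from 2738213, had a broad left neighbour in replicate 1 alone, 87.0 kb wide and 1576 bp away, and there the shorter neighbour scored higher, 2.13 against 1.73.

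Of the 10 longest stretches called in both replicates, 9 had another region under 2 kb away on either side in both. In 4 of them, spalt included, a region of at least 10 kb lay there. Short gaps were common in general, with a median gap on the major arms of 3.74 kb in replicate 1 and 3.52 kb in replicate 2. These medians lie above the limit of 2 kb, and the share of all regions with so close a neighbour was not counted. Whether 9 of 10 is usual is therefore unknown, and it is not read as a trait of long stretches. By mean score, spalt ranked 6 of the 10, at 2.00 ± 0.0017 (SD, n = 2). The 10 ran from 1.41 ± 0.10 (SD, n = 2) for the 3L stretch of 204.9 kb to 2.57 ± 0.037 (SD, n = 2) for the 3L stretch of 160.4 kb, with a median of 2.09.

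**Figure D4:**
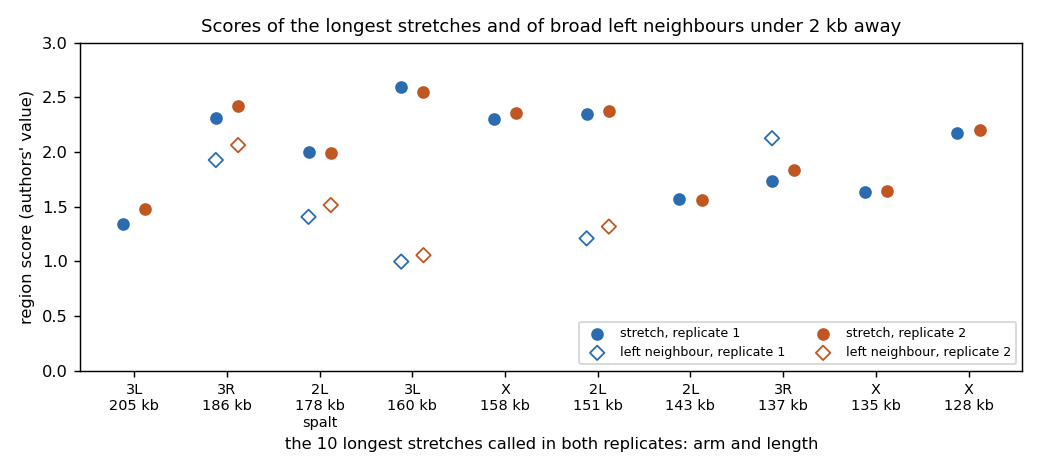
Scores of the 10 longest stretches called in both replicates (filled circles, by arm and length) and of regions of at least 10 kb that lie under 2 kb to their left (open diamonds), in replicate 1 and replicate 2. At spalt the left neighbour lies at 1.41 and 1.51, below the stretch at 2.00 and 1.99.

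The surroundings of the spalt pair differed by side. On the left, the next region ended 45.0 kb away in replicate 1 (11239071 to 11240722, score 0.548) and 48.1 kb away in replicate 2 (11232582 to 11237757, score 0.676). In the series list it was a 1255 bp region only 28.9 kb away (score 0.433). These are the nearest regions to the left of the window, while the left spalt region began 5765 bp and 5894 bp inside it in the replicates. On the right, the spalt region ended 4877 bp and 4826 bp inside the window, and nothing was called for the next 512 kb in replicate 1 and 450 kb in replicate 2. Called sequence thus filled 7.64% and 3.73% of the 50 kb to the left of the pair in the replicates, 40.9% and 42.3% of the 100 kb and 17.5% and 17.1% of the 250 kb there. To its right it filled 0% at each of these distances in all 3 lists.

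That empty stretch was long for the genome. It ranked 42 of 1464 gaps between neighbouring regions on the major arms in replicate 1 and 54 of 1433 in replicate 2, where the median gaps were 3.74 kb and 3.52 kb. On 2L alone it ranked 11 of 240 and 13 of 242. In replicate 2 it was ended by a 1494 bp region with a score of 0.445, 11944974 to 11946467, which replicate 1 did not call. Both replicates called the next one, which lay at 12007462 to 12010528 in replicate 1 (score 1.34). In replicate 2 it lay at 12007338 to 12010568 (1.63). Among regions of at least 100 kb, the farther of the 2 neighbouring gaps had a median of 84.1 kb in replicate 1 and 77.0 kb in replicate 2, and the spalt region ranked 4 of 22 and 3 of 23. How well reads can be placed in the gap and in the break was not examined, so the lack of a call there does not show that the mark is absent.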

How the data were processed

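H3K27me3 ChIP was profiled by sequencing in 2 ChIP and 2 input libraries, grouped by their titles. The authors deposited 3 region lists used here, for ChIP replicate 1, ChIP replicate 2 and the series. The score in the deposited lists is a single number per region. Its scale, the caller, the threshold and the making of the series list were not given in the sources used here. Starts and ends are 1-based, per the file headers. Bowtie 0.12.7 is named in the submitters' processing notes. The build is not named, and the 14 sequence lengths in the headers are those of Release 5. In the lists 1 region ran past its arm and was clipped.

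The window, its members and the comparisons were chosen with earlier results of these data known. Every region of the window is named, with salm, salr, the gene between them and the 3 nearest genes on each side. Limits for broad regions, short breaks and width classes were chosen after widths were seen. Overlap was counted from 1 bp. A break is the uncalled stretch between neighbouring regions of 1 list. Alternatives were regions at or above the median score, merging of regions under 1 kb apart, a window 50 kb longer on each side, 50% overlap, and each replicate alone. The labels do not say whether the replicates came from separate embryo collections. Tools were Python 3.11.15, pandas 2.3.3, numpy 2.4.6 and scipy 1.17.1, with matplotlib 3.10.9 for figures. The interval code was tested on simulated data and recovered 20 of 20 pairs of lists exactly.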

Additional observations from a re-analysis of the deposited data

How the results depend on the processing

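Merging regions under 1 kb apart closed the spalt break by construction. It left 1 region in each replicate, 209.3 kb wide on average, with 95.1% of the window called and 99.91% of the bases shared. Extending the window by 50 kb on each side took in regions of the cluster to the left and gave 5 regions in replicate 1 and 4 in replicate 2, with 67.5% called and 98.98% shared. Restricting the lists to regions at or above their median score changed none of the counts and shares of the window, and could not have done so. By score the window's regions ranked 107 and 199 of 1486 in replicate 1, and 112 and 183 of 1459 in replicate 2. With either replicate alone the called share ranged from 94.78% to 94.80%, the width of the right region from 178.13 to 178.285 kb, and its score from 1.994 to 1.996. All 4 regions still overlapped the other replicate, and the break still recurred, when 50% of both regions or breaks was asked for. The sharing of 99.55% and 99.91% of bases, and the 726 bp break lying within the 838 bp one, had already fixed this. No paired analysis was possible because the result comes from no test and the inputs that share the replicate numbers have no list of their own here. The lists give no depth, and its effect on the calls was not measured.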

Other observations

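Left of the spalt pair lay a second cluster of H3K27me3 regions, with lower scores and cut into more pieces. Regions less than 20 kb apart formed a chain of 7 in replicate 1, at 11181606 to 11240722 (59.1 kb, 74.1% of it called). In replicate 2 the chain held 4, at 11191562 to 11237757 (46.2 kb, 91.5% called). Scores were 0.533 to 1.06 in replicate 1 and 0.676 to 1.11 in replicate 2, so every region of the chain scored below both spalt regions of its own list. Every one was also shorter than both. Over all regions, score rose with width (Spearman correlation 0.80 in replicate 1 and 0.83 in replicate 2). The chain was not compared with regions of like width, so its lower scores are not separated from its shorter regions. The core of the cluster was a region of 16.3 kb in replicate 1 and 17.5 kb in replicate 2, followed by one of 13.22 kb and 13.19 kb.

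The replicates differed in the short regions of the chain. The 2 leftmost regions of replicate 1, 1407 and 2010 bp wide, and its rightmost, 1652 bp wide, had no counterpart in replicate 2. Over all regions of replicate 1, 81.3% overlapped a region of replicate 2, and 100% of the broad ones did. Both spalt regions are broad and these are not, so the difference from spalt is not particular to the cluster. The series list held 8 regions in its chain, from 11181174 to 11256667, the last of which, 1255 bp wide with a score of 0.433, was called in neither replicate. Which genes lie in this cluster was not examined, since the gene table is of another release.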
